A study of Mus musculus with 8 samples.

Results

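The genes described here encode 7 subunits of the GABA-A receptor, namely the alpha subunits Gabra2, Gabra3, Gabra4 and Gabra5, the beta subunits Gabrb1 and Gabrb2, and the gamma subunit Gabrg3. They were found by gene symbol among the 19 GABA-A and GABA-rho receptor subunit genes in count files that hold 23284 gene symbols, and these 7 were chosen with earlier results of these data known, so their common direction is a description. RNA-seq was performed on cortex of C57BL/6 mouse embryos at embryonic day E15.5, with 4 libraries labelled WT (ErbB4+/+) and 4 labelled ErbB4-/-. ErbB4 is a receptor tyrosine kinase for neuregulins, and the single comparison of the series asked which transcripts depend on it in the developing cortex. The ErbB4-/- mice carry a transgene that restores ErbB4 in the heart under the alpha-MHC promoter, since loss of the receptor there is lethal to the embryo. WT and ErbB4-/- mice were bred as separate homozygous colonies, so colony and genotype cannot be told apart. The tissue was dorsal cortex, dissected free of ganglionic eminences and meninges. The sources used here do not say which embryos share a litter, so p-values measure the spread between these libraries only.

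GABA-A receptors are pentameric chloride channels opened by GABA, usually built from alpha and beta subunits joined by a gamma or delta subunit. GABA binds between alpha and beta subunits, and the alpha subunit together with the gamma subunit sets the response to benzodiazepines. In immature cortical neurons and progenitors the chloride gradient lets GABA depolarize the cell, and receptors with embryonic alpha subunits such as alpha2, alpha3 and alpha5 are present before most inhibitory synapses have formed.

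The genes lie in clusters in the mouse genome (NCBIM37, mm9, GENCODE annotation). On chromosome 5, Gabra2 (71352296 to 71487088) and Gabra4 (71960973 to 72049547) lie on the minus strand and Gabrb1 (72091171 to 72529628) on the plus strand. On chromosome 7, Gabrg3 (63971835 to 64642558) and Gabra5 (64663060 to 64765379) lie on the minus strand, 20.5 kb apart. Gabra3 is the only one of the 7 on chromosome X, on the minus strand (69678020 to 69902187), and Gabrb2 lies on the plus strand of chromosome 11 (42233259 to 42446092). All 7 are protein coding, with 9 to 11 exons in the longest transcript. By RefSeq start sites, an upstream transcript of Gabrb1 and the transcript of Gabra4 overlap head to head by 388 nucleotides. The libraries did not keep the strand, so reads from that stretch cannot be assigned to either gene by strand.

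RefSeq start sites (table of GRCm38.p6) were available for all 7 genes, and their upstream windows were each found once in NCBIM37. The 250 bases before the start of 3 alpha subunit genes are shown because they differ in base composition, from a CpG-rich window at Gabra2 to one without any CpG at Gabra3. Capitals mark a GC box (GGGCGG) at Gabra2 and the letters of a TATA box (TATAAA) on the opposite strand at Gabra3, read here as TTTATA. At Gabra3 these letters lie near the middle of the window and not close to the start site. The Gabra5 window has neither motif. The coordinates, in mm9 on the minus strand, are chr5:71487089-71487338 for Gabra2, chrX:69902259-69902508 for Gabra3 and chr7:64765430-64765679 for Gabra5.
Gabra2: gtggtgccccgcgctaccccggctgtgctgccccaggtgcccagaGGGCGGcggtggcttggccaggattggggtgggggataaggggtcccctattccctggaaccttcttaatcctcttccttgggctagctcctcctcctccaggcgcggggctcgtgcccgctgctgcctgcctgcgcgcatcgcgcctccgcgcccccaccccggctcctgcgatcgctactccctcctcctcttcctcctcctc
Gabra3: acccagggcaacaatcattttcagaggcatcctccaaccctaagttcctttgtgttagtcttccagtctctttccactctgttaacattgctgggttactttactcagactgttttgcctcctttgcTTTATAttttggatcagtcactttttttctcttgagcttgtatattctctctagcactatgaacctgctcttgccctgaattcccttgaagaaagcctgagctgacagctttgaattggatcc
Gabra5: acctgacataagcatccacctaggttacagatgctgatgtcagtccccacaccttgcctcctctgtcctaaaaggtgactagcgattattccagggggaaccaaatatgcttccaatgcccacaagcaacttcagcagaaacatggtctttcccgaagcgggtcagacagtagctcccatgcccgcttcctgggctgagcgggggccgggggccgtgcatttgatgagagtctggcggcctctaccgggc
The 30 bases around the TATA box of Gabrb2, the gene of the 7 with the most reads, lie on the plus strand at chr11:42233900-42233929, and the box (capitals) starts 30 bases before the start site.
Gabrb2: tccccctcctgcTATAAAtagctggactag

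CpG dinucleotides numbered 18 in the Gabra2 window, 12 at Gabra4, 9 at Gabra5, 9 at Gabrg3, 18 and 6 in the 2 windows of Gabrb1, 8, 8 and 4 in the 3 of Gabrb2, and 0 in both of Gabra3, against a median of 6 over 32851 RefSeq windows of this length. GGGCGG, searched on both strands, was found in 4 of the 11 windows of the 7 genes (1 each of Gabra2, Gabra4, Gabrb2 and Gabrg3) and in 32.7% of all windows. TATAAA was found in 3 of the 11 (both overlapping windows of Gabra3, which share the motif, and 1 of Gabrb2) and in 12.4% of all windows. The cAMP response element TGACGTCA (1.55% of windows), the E-box CACGTG (6.02%) and the EGR site GCGTGGGCG (0.536%) were found in 0 of the 11. A match in such a window describes its letters only.

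Before the subunits were compared, the RNA of the targeted gene was read in each library. Erbb4 was at 8.99, 19.9, 25.3 and 19.2 CPM (counts scaled to a common library size) in WT libraries 1 to 4 and at 20.9, 24.6, 20.7 and 23.5 CPM in ErbB4-/- libraries 1 to 4. It was thus not lower in the libraries labelled ErbB4-/- (log2 fold change 0.28, edgeR adjusted p = 0.812). Counts over the whole gene measure neither the protein nor the allele, so they cannot decide whether the labels are right. Every direction below is that of the labels. Depth was from 28205703 to 48871480 counts per library. Xist, expressed from the inactive X chromosome of females, was at 983 to 1687 CPM in WT libraries 1 to 3 and at 2.70 to 3.82 CPM in the other 5, while Ddx3y, on the Y chromosome, was at 0.257 to 0.495 CPM in those 3 and at 76.4 to 80.9 CPM in the other 5. WT library 1 stood apart from all others on the first principal component (-38.9 against -6.07 to 15.48, 30.6% of the variance). In that library the deviation of a gene from its mean also fell with transcript length (Spearman rho = -0.579 across 14392 genes, which are not independent, against 0.04 to 0.22 in the other 7 libraries). Markers of cortical neurons summed to 8828 to 9537 CPM per library and markers of the dorsal telencephalon to 1272 to 1427 CPM, with all detected genes of both lists above 0 in every library.

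All 7 subunit genes had a higher mean in the libraries labelled ErbB4-/- than in WT, by 0.10 to 0.61 on the log2 scale, but none passed the threshold. Across the 14696 genes tested with edgeR, 4 had an adjusted p under 0.05 (0.0272%), and 0 of these were subunit genes. With an unadjusted p under 0.05, 1 of the 7 (Gabra5) was higher, against 3% of all genes tested. A higher mean in ErbB4-/- was found for 7 of 7 subunit genes and for 49.2% of all genes tested. The median log2 fold change was 0.22 over the 7 genes and -0.002 over all genes. In none of the 7 did the libraries of both genotypes separate without overlap, which 1.86% of all genes did with ErbB4-/- higher. DESeq2 called 24 genes and limma-voom 4, with 0 subunit genes in either, and an unadjusted p under 0.05 was given to 2 of the 7 by DESeq2 (Gabra5 and Gabrb2; 3.39% of all genes higher with such a p) and to 1 by limma-voom (3.27%). These are bulk samples, so a change in the number of cells that express a subunit and a change in its RNA per cell cannot be told apart.

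**Figure D1:**
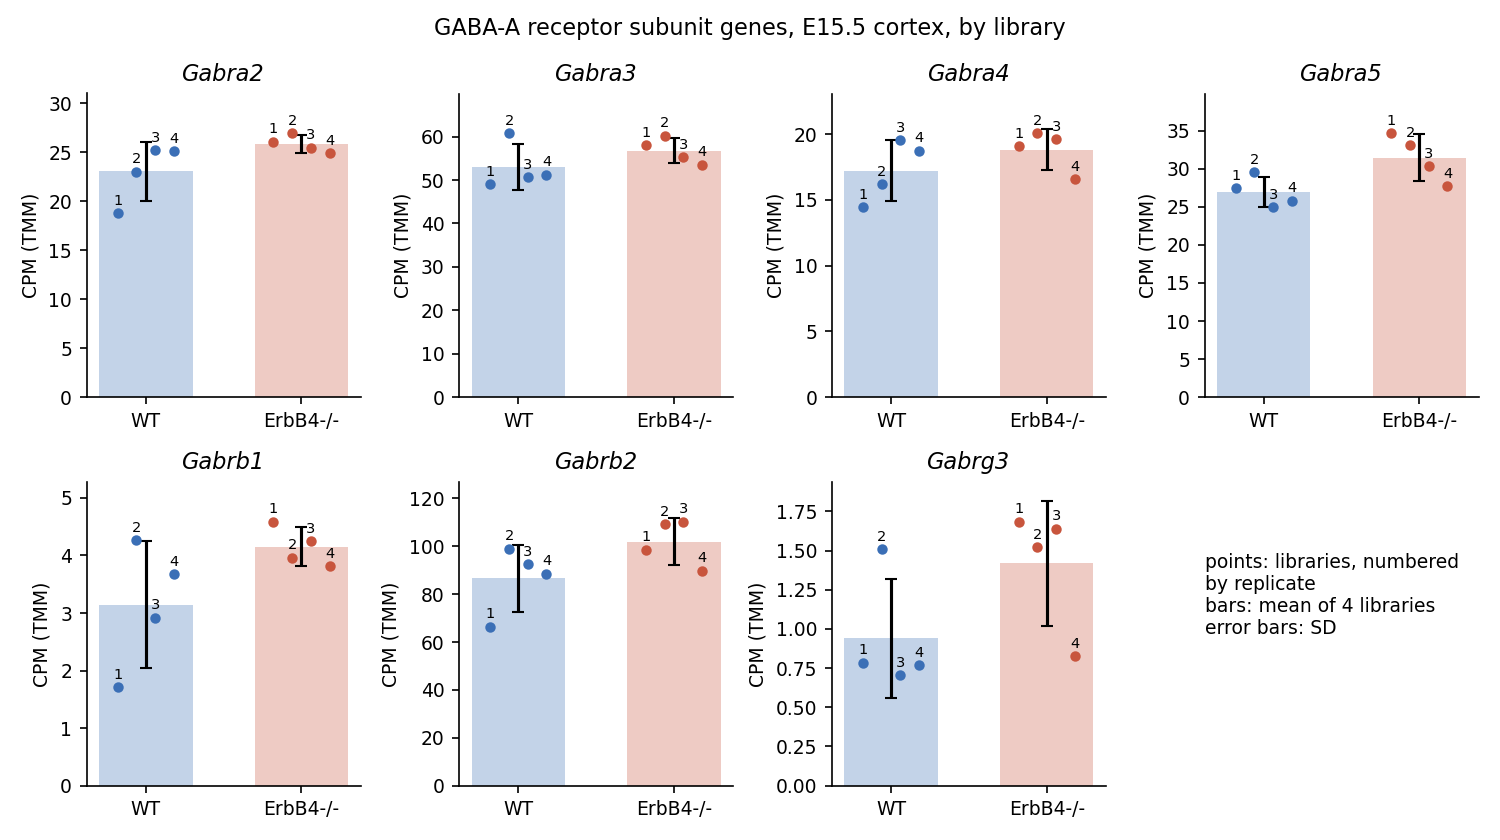
CPM (TMM-normalized, linear axis from 0) of the 7 subunit genes in each library, with the 4 WT libraries in blue and the 4 libraries labelled ErbB4-/- in red, numbered by replicate. Bars are means of 4 libraries and error bars are SD. The genotypes overlap in every panel, for example at Gabra5, where WT library 2 (29.6 CPM) lies above ErbB4-/- library 4 (27.7 CPM).

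The alpha subunits were described first, starting with Gabra5, whose product is known for extrasynaptic receptors that carry tonic inhibition in the hippocampus. Gabra5 was at 27.5, 29.6, 25.0 and 25.8 CPM in WT libraries 1 to 4. In ErbB4-/- libraries 1 to 4 it was at 34.7, 33.1, 30.3 and 27.7 CPM. Of the ErbB4-/- libraries, 3 lay above every WT library and replicate 4 lay among them. The mean was 26.9 ± 2.02 CPM in WT and 31.4 ± 3.09 CPM in ErbB4-/- (SD, n = 4 each). The log2 fold change of the edgeR fit was 0.22 (SE 0.09), which is 16.8% higher in ErbB4-/-. It had an unadjusted p of 0.0245 and an edgeR adjusted p of 0.81. The exact two-sided permutation test gave p = 0.0571, where the smallest p that 4 against 4 libraries allow is 0.0286.

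Gabra2 encodes the alpha2 subunit, which is abundant in the embryonic forebrain and later sits at the axon initial segment. Its level was 18.8, 23.0, 25.3 and 25.1 CPM in WT libraries 1 to 4. The ErbB4-/- libraries were at 26.1, 27.0, 25.5 and 24.9 CPM. WT library 1 was the lowest of the 8, and WT libraries 3 and 4 lay within the ErbB4-/- range. The means were 23.1 ± 3.02 and 25.9 ± 0.885 CPM (SD, n = 4 each), and the log2 fold change was 0.16 (SE 0.09, edgeR adjusted p = 0.81, exact permutation p = 0.114).

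Gabra3, the X-linked alpha subunit and another of the embryonic forms, was at 49.1, 60.8, 50.7 and 51.2 CPM in WT libraries 1 to 4. In ErbB4-/- libraries 1 to 4 it was at 58.0, 60.2, 55.3 and 53.6 CPM. It was the only one of the 7 with its highest value in a WT library (replicate 2), although the other 3 WT libraries lay below every ErbB4-/- library. Its WT libraries 1 to 3, which were the libraries high in Xist, lay on both sides of WT library 4. The means were 53.0 ± 5.31 and 56.8 ± 2.93 CPM (SD, n = 4 each), with the smallest log2 fold change of the 7 (0.10, SE 0.08, edgeR adjusted p = 0.81, exact permutation p = 0.257). It was 0.17 (SE 0.07, unadjusted p = 0.0228 in edgeR) without WT library 2, where Gabra4 (0.10) was the smallest. Gabra4 was also the smallest without WT library 1 (0.05) or ErbB4-/- library 3 (0.11), and with 1 surrogate variable (0.04). The same held with Xist as a covariate (0.02) and with WT library 4 as the only WT library (0.01).

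Gabra4, whose product joins delta-containing extrasynaptic receptors in the mature forebrain, was at 14.4, 16.2, 19.5 and 18.7 CPM in WT libraries 1 to 4. The ErbB4-/- libraries were at 19.1, 20.1, 19.6 and 16.6 CPM. Its WT libraries 1 and 2 were the lowest, and ErbB4-/- library 4 came next. The means were 17.2 ± 2.35 and 18.8 ± 1.55 CPM (SD, n = 4 each), and the log2 fold change was 0.13 (SE 0.11, edgeR adjusted p = 0.818, exact permutation p = 0.229).

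The beta subunits, which form the GABA site together with an alpha subunit, differed widely in level. Gabrb2 encodes the beta2 subunit of the most common adult receptor and was at 66.5, 99.0, 92.4 and 88.5 CPM in WT libraries 1 to 4. In ErbB4-/- libraries 1 to 4 it was at 98.6, 109, 110 and 89.8 CPM. WT library 1 was far below the others, and ErbB4-/- library 4 lay between WT libraries 4 and 3. The means were 86.6 ± 14.1 and 102 ± 9.69 CPM (SD, n = 4 each), and the log2 fold change was 0.24 (SE 0.11, unadjusted p = 0.0575, edgeR adjusted p = 0.81, exact permutation p = 0.143). Without WT library 1 it was 0.13 (SE 0.07), and with 1 surrogate variable 0.10 (SE 0.07).

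Gabrb1 encodes the beta1 subunit and had few reads, from 48 to 226 per library. It was at 1.71, 4.27, 2.92 and 3.68 CPM in WT libraries 1 to 4 and at 4.59, 3.96, 4.25 and 3.81 CPM in ErbB4-/- libraries 1 to 4. WT library 1 was again the lowest, while WT library 2 lay above 3 of the 4 ErbB4-/- libraries. The spread was wider in WT (3.14 ± 1.10 CPM) than in ErbB4-/- (4.15 ± 0.342 CPM, SD, n = 4 each), a difference in spread that was not tested. The log2 fold change was 0.40 (SE 0.22, edgeR adjusted p = 0.81, exact permutation p = 0.143), and 0.21 (SE 0.15) without WT library 1.

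Gabrg3, a gamma subunit gene, had the fewest reads, from 22 to 83 per library, and the highest log2 fold change. It was at 0.785, 1.51, 0.704 and 0.769 CPM in WT libraries 1 to 4. In ErbB4-/- libraries 1 to 4 it was at 1.69, 1.52, 1.64 and 0.826 CPM. The 8 values thus formed a low set (WT libraries 1, 3 and 4 and ErbB4-/- library 4) and a high set (WT library 2 and ErbB4-/- libraries 1 to 3), with 1 library of each genotype on the side of the other. The means were 0.941 ± 0.379 and 1.42 ± 0.401 CPM (SD, n = 4 each). The log2 fold change was 0.61 (SE 0.30, unadjusted p = 0.0657, edgeR adjusted p = 0.81, exact permutation p = 0.0571). It was from 0.49 (SE 0.33) without WT library 3 to 0.93 (SE 0.28) without WT library 2.

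Levels of different subunit genes were compared per kilobase of the longest annotated transcript, with the transcript set that was counted being unknown here. Gabra3 had the highest level in WT, at 14.5 CPM per kb, followed by Gabrb2 (11.3), Gabra5 (10.2), Gabra2 (9.64), Gabra4 (4.18), Gabrb1 (1.02) and Gabrg3 (0.0964). In the libraries labelled ErbB4-/- the order was the same, with 13.3 CPM per kb at Gabrb2, 11.8 at Gabra5, 10.8 at Gabra2, 4.57 at Gabra4, 1.34 at Gabrb1 and 0.145 at Gabrg3. Within each genotype the libraries of Gabrb2 and Gabra5 overlapped, as did those of Gabra5 and Gabra2, and over all 8 libraries Gabra3 and Gabrb2 overlapped too. Gabra4, Gabrb1 and Gabrg3 were each below the gene before them in all libraries. The alpha3, alpha5 and alpha2 transcripts thus exceeded alpha4 in this cortex, and beta2 exceeded beta1, in both genotypes.

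**Figure D2:**
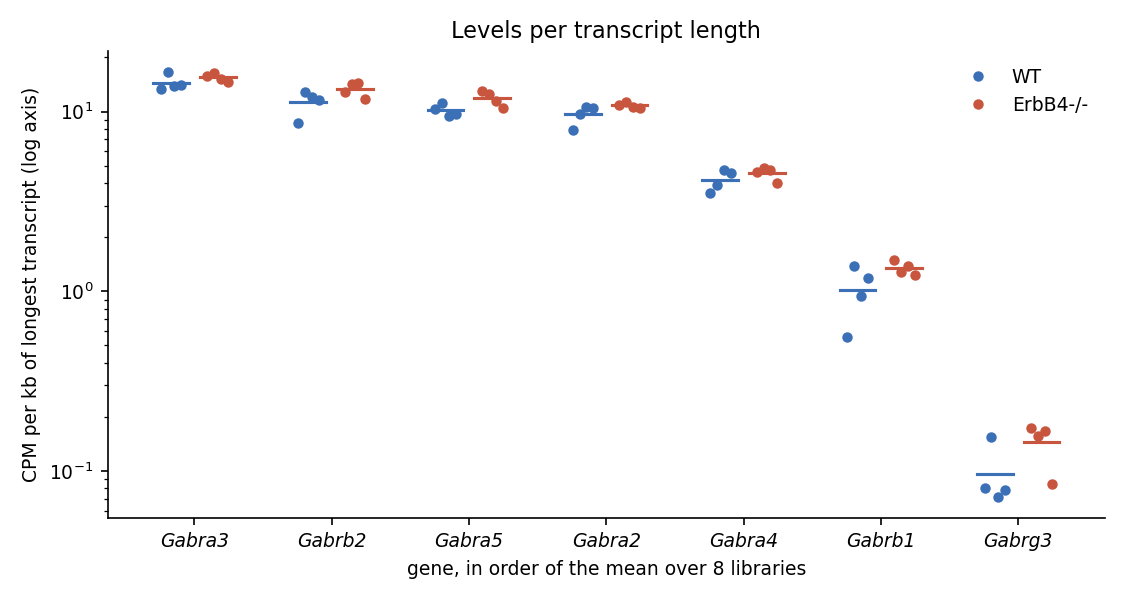
CPM per kilobase of the longest annotated transcript (log axis) for each subunit gene, ordered by the mean over 8 libraries. Points are libraries (blue WT, red ErbB4-/-) and lines are means of 4, and the genes span from 14.5 to 0.0964 CPM per kb in WT in the same order in both genotypes.

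To ask whether any subunit differed from the rest, the log2 CPM of each gene was taken relative to the mean of the other 6 in the same library. Relative to the others, Gabrg3 was higher by 0.35 (exact permutation p = 0.229) and Gabrb1 by 0.23 (p = 0.429, exact) in ErbB4-/- than in WT. The difference was -0.20 for Gabra3 (exact permutation p = 0.0857), the smallest p of the 7, and between -0.16 and -0.03 for the remaining 4. None of the 7 exact tests gave a p under 0.05 with all 8 libraries. With 1 library left out, the smallest possible p (0.0286, exact permutation test) was reached by Gabra3 without ErbB4-/- library 4 (-0.25) and by Gabra4 without WT library 2 (-0.29).

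The lowest values of the 7 genes lay in 2 libraries and the highest in 4. WT library 1 held the lowest value of 5 of the 7 genes and WT library 3 of the other 2 (Gabra5 and Gabrg3). The highest value lay in ErbB4-/- library 1 for 3 genes, in ErbB4-/- library 2 for 2, and in ErbB4-/- library 3 and WT library 2 for 1 each. Averaged over the 7 genes, the deviation from the mean of 8 libraries was -0.41, 0.11, -0.15 and -0.09 (log2) in WT libraries 1 to 4. In ErbB4-/- libraries 1 to 4 it was 0.22, 0.21, 0.19 and -0.07. ErbB4-/- library 4 thus lay with the WT libraries and WT library 2 lay nearer to the ErbB4-/- libraries.

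**Figure D3:**
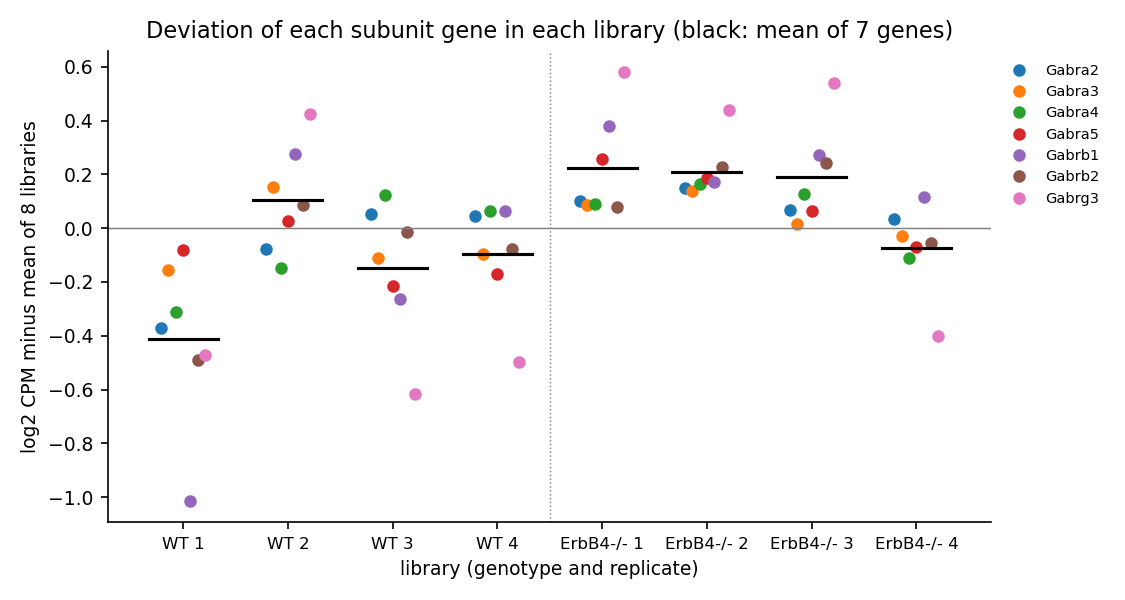
Log2 CPM of each subunit gene (colours) minus its own mean over 8 libraries, by library, with the mean of the 7 genes as a black line. WT library 1 has the lowest mean (-0.41), and ErbB4-/- library 4 (-0.07) lies below WT library 2 (0.11).

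Pairs of subunit genes were compared across the 8 libraries as a description, since genotype, depth and WT library 1 are shared by all pairs. Over 21 pairs, Pearson's r of log2 CPM was from 0.26 to 0.90 with a median of 0.71, and without WT library 1 it was from -0.20 to 0.90 with a median of 0.50. The 2 pairs highest in r over 8 libraries lay within gene clusters (Gabra2 and Gabra4 474 kb apart with 1 gene between them, Gabra5 and Gabrg3 adjacent), followed closely by pairs on different chromosomes (Gabrb1 and Gabrb2, r = 0.88, and Gabra3 and Gabrg3, r = 0.87). Gabra2 and Gabra4 on chromosome 5 had r = 0.90 (0.83 without WT library 1), and Gabra5 and Gabrg3 on chromosome 7 also had r = 0.90 (0.90 without it). Gabra4 and Gabrb1, adjacent on opposite strands, had r = 0.61 and -0.20 without WT library 1. Without that library Gabra2 and Gabrb1 of the same cluster had r = -0.01, while Gabrg3 had r = 0.87 with Gabra3, 0.85 with Gabrb1 and 0.84 with Gabrb2, all above Gabra2 and Gabra4. For each subunit gene the most similar profile among all tested genes had r of 0.97 to 0.99 over 8 libraries, which was that of Tab3 for Gabra2, Nipal2 for Gabra3, Cdh20 for Gabra4, Grin1 for Gabra5, R3hdm2 for Gabrb1, Nedd4l for Gabrb2 and Nov for Gabrg3. The next most similar were Slc7a1, Cpeb2, Zfp114, Lonrf1, Sdk2, Slc16a7 and Ephx1, in the same order of subunits. Without WT library 1, r was 0.94 to 0.99 for the most similar genes and 0.91 to 0.98 for the next. These genes were picked as the highest of 14696 over 8 libraries, so their r is high by selection. Shared regulation was not tested.

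Because WT library 1 stood apart and 3 WT libraries differed from the other 5 in Xist and Ddx3y, the fold changes were recomputed with other sets of libraries and with covariates. Those 3 libraries were all WT, so sex, as read from these genes, was partly confounded with genotype. Without WT library 1 the median log2 fold change of the 7 genes was 0.13, and Gabra2, Gabra3 and Gabra4 were at 0.08, 0.07 and 0.05. With 1 surrogate variable, which was high in WT library 1 only, the median was 0.10. With WT library 4 as the only WT library against 4 ErbB4-/- libraries, all with Ddx3y, it was 0.18, with Gabra4 at 0.01 and Gabra2 at 0.04. In that comparison the lone WT library is assumed to vary like the others. With Xist as a covariate the median was 0.21, with Gabra2 at 0.06 (SE 0.15), Gabra4 at 0.02 (SE 0.17) and Gabrb1 at 0.21 (SE 0.37). In that fit Gabra3 (0.16), Gabra5 (0.28) and Gabrg3 (0.89) were higher than in the main fit, and Gabrb2 was at 0.23. Gabra5 was between 0.17 and 0.29 in all 19 alternatives and was not lowered by leaving out WT library 1 (0.23). All 7 genes kept a higher mean in ErbB4-/- in every alternative that tested them, with adjusted p from 0.466 to 1.00.

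The count of separated genes turned on single libraries. Without WT library 2, the libraries of both genotypes did not overlap in 4 of the 7 genes (Gabra3, Gabra5, Gabrb1 and Gabrg3), with ErbB4-/- higher in each, against 4.71% of all genes tested that separated in that direction. Without ErbB4-/- library 4 this held for 3 of the 7 (Gabra2, Gabra5 and Gabrg3), against 5.46% of all genes in that direction. It held for 0 of 7 when any other library was left out. An unadjusted p under 0.05 in edgeR was reached by 5 of the 7 without WT library 2 (4.85% of all genes higher with such a p), by 3 without ErbB4-/- library 4 (4.14%), and by 0 without any 1 of WT library 3, WT library 4, ErbB4-/- library 1 or ErbB4-/- library 2. Over all genes, 1394 and 1145 had an unadjusted p under 0.05 without WT library 2 and without ErbB4-/- library 4, against 812 with all libraries.

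**Figure D4:**
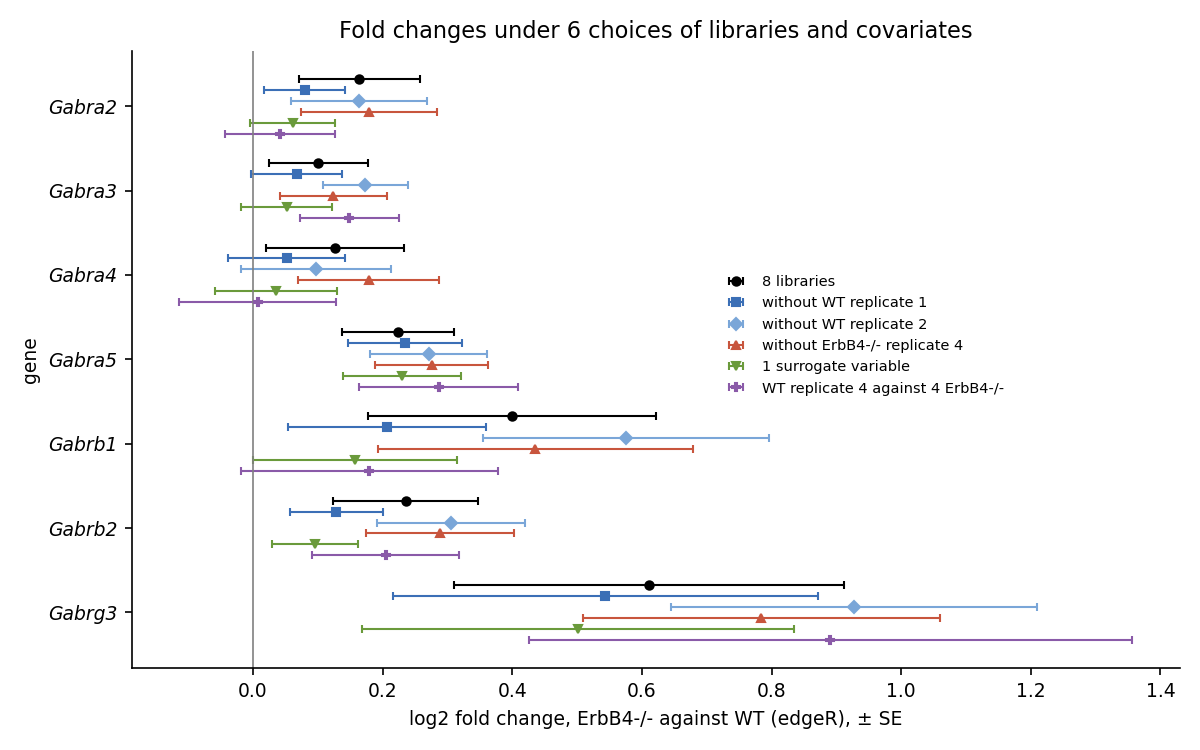
Log2 fold change (ErbB4-/- against WT, edgeR) with SE of each subunit gene under 6 choices of libraries and covariates. All points lie above 0, Gabra4 reaches 0.01 with WT library 4 as the only WT library, and Gabra5 stays between 0.22 and 0.29 in the 6 fits shown.

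Other parts of GABA signalling were summarised from lists. Of the other 12 GABA-A and GABA-rho subunit genes, 7 had enough reads to be tested. Of these, 5 had a higher and 2 a lower mean in ErbB4-/-, 2 were higher with an unadjusted p under 0.05 (3% of all genes tested) and 0 had an adjusted one in edgeR, and their median log2 fold change was 0.11. Gabrg1, another gamma subunit gene, was at 0.08 (SE 0.19), Gabre at -0.20 (SE 0.28) and Gabrq at -0.05 (SE 0.19), all smaller than their errors. Both metabotropic GABA-B receptor genes had higher means. Gabbr1 was at 0.10 (SE 0.06) and Gabbr2 at 0.31 (SE 0.14, unadjusted p = 0.044, edgeR adjusted p = 0.81).

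Genes that make, load and clear GABA had a median log2 fold change of 0.02 over the 7 of 9 tested, of which 0 had an unadjusted p under 0.05 in edgeR. Gad1 and Gad2, the glutamate decarboxylases that make GABA, were at 0.02 (SE 0.13) and -0.02 (SE 0.12), and Slc32a1, the vesicular GABA transporter, was at -0.02 (SE 0.11). Among 20 genes of receptor assembly, trafficking and clustering, 14 had a higher and 6 a lower mean (49.2% of all genes tested were higher), with a median of 0.03. Gphn, the gephyrin scaffold under inhibitory receptors, was at 0.00 (SE 0.06). Kctd12, an auxiliary subunit of GABA-B receptors, was the 1 gene among these with an unadjusted p under 0.05, near the 3% of all genes tested that were higher with such a p. Its log2 fold change was 0.27 (SE 0.09, unadjusted p = 0.0107, edgeR adjusted p = 0.81). The potassium-chloride cotransporter gene Slc12a5, whose product lowers chloride in maturing neurons, was at 0.09 (SE 0.12).

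Dbi, which encodes the diazepam-binding inhibitor, a peptide that acts at the benzodiazepine site, had the opposite direction to the subunits. It was at 289, 171, 209 and 207 CPM in WT libraries 1 to 4 and at 146, 157, 150 and 153 CPM in ErbB4-/- libraries 1 to 4. All 4 ErbB4-/- libraries lay below all 4 WT libraries, as they did for 1.48% of all genes tested, with WT library 1 the highest. The log2 fold change was -0.53 (SE 0.12), with an unadjusted p of 0.00107 and an edgeR adjusted p of 0.589, and the exact permutation p was 0.0286, the smallest possible.

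Sums of marker genes in the same libraries were compared as well. Cortical progenitor markers, of which all 12 were detected, summed to 3400, 2754, 3201 and 3065 CPM in WT libraries 1 to 4 and to 2712, 2690, 2789 and 3062 CPM in ErbB4-/- libraries 1 to 4 (exact permutation p = 0.114). Of these 12 genes 11 had a lower mean in ErbB4-/-, 5 of them with an unadjusted p under 0.05 in edgeR (2.52% of all genes tested were lower with such a p) and 0 with an adjusted one. WT library 1, lowest in the subunits, was the highest in progenitor markers, and ErbB4-/- library 4 was the highest of its genotype. Cortical neuron markers summed to 8828 to 9081 CPM in WT and 9050 to 9537 CPM in ErbB4-/- (exact permutation p = 0.0857). Among the 12 tested, 8 had a higher mean in ErbB4-/- (49.2% of all genes tested did) and 4 a lower one. An unadjusted p under 0.05 in edgeR was reached by 2, both higher (3% of all genes tested were higher with such a p), and an adjusted one by 0. Markers of ganglionic eminence and interneurons spanned 694 to 856 CPM in WT and 677 to 865 CPM in ErbB4-/-, and those of meninges and vessels 154 to 161 and 149 to 163 CPM. Red blood cell markers summed to 56.6, 50.1, 45.2 and 31.8 CPM in WT libraries 1 to 4 and to 20.8, 23.8, 22.9 and 35.2 CPM in ErbB4-/- libraries 1 to 4 (exact permutation p = 0.0571), where ErbB4-/- library 4 lay above WT library 4. Of 9 such genes, 3 were at 0 in every library and 4 were tested, of which 3 were lower and 1 (Alas2, 0.21, SE 0.13) was higher. The embryonic globin genes Hbb-y (log2 fold change -1.72, SE 0.45, edgeR adjusted p = 0.81) and Hba-x (-1.23, SE 0.31, edgeR adjusted p = 0.74) had an unadjusted p under 0.05. Relative to the neuron markers, the subunit genes had higher means in ErbB4-/-, by 0.06 (Gabra3) to 0.53 (Gabrg3), with exact permutation p from 0.0857 to 0.571. Without that reference the mean log2 CPM difference was 0.10 at Gabra3 and 0.58 at Gabrg3. The part of progenitor, neuron or blood content in the subunit values was not tested.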

How the data were processed

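Libraries were made by the study from polyA RNA without strand information, and reads were mapped to mm9 with HISAT and counted per gene with HTSeq-count. The annotation used for counting is not given in the sources used here. The deposited files hold raw counts, whole numbers per gene symbol without normalization, for 4 WT and 4 ErbB4-/- libraries of 28205703 to 48871480 counts. A deposited table of the authors' own DESeq2 comparison (fold changes and p-values) was not used. The labels gave the genotypes.

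Genes were tested for genotype with edgeR 4.0.16 in R 4.3.3 (TMM, factors 0.994 to 1.01, filterByExpr with minimum count 10 and total 15, quasi-likelihood F test), and p-values were adjusted by Benjamini-Hochberg over 14696 genes and a threshold of 0.05. The common biological coefficient of variation was 10.7%. CPM values are TMM-normalized, and log2 CPM has a prior count of 2. For single values an exact two-sided permutation over 70 assignments was used. Transcript lengths and positions came from GENCODE on NCBIM37. The subunits and all lists were chosen with earlier results of these data known. Named are the 7 subunit genes, Erbb4, Xist, Ddx3y, partner genes fixed by name, list genes with an unadjusted p under 0.05, and 2 genes most similar to each subunit gene, and some genes covered by this rule are not reported here. Alternatives were DESeq2 1.42.0, limma-voom (limma 3.58.1), scaling by relative log expression or upper quartile, all genes or those with a mean count of 50 or more, a replicate block, an Xist covariate, 1 surrogate variable (sva 3.50.0), removal of each library's trend with transcript length (lowess, span 0.3), WT library 4 as the only WT library, a prior count of 0.5, CPM without TMM, and fits lacking 1 library. The fits were tested on simulated data with independent counts. The simulation held no outlying library, length trend or sex difference, so it does not cover these features of the libraries.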

Additional observations from a re-analysis of the deposited data

Results flagged for a closer look

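Of 30 groups of 4 libraries examined for a value far from the others, 2 were picked out, both at Gabrg3, where chance picks about 1 in 20 groups. In WT, library 2 was at a log2 CPM of 0.65, and its gap to the next library was 0.86 of the range of the 4. In ErbB4-/-, library 4 was at a log2 CPM of -0.18, with a gap also of 0.86 of the range. These values rest on 47 reads in WT library 2 and 26 in ErbB4-/- library 4.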

How the results depend on the processing

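The 7 subunit genes kept a positive log2 fold change in all 19 alternatives (6 of 6 where a mean of at least 50 counts was required, which removed Gabrg3). Their median was from 0.13 to 0.28 with 1 library left out, lowest without WT library 1, and from 0.10 to 0.23 in the others. The number of genes called was 4 in edgeR, 24 with DESeq2, 2 with the length trend removed, and 1 with relative log expression, upper-quartile scaling, Xist as a covariate or WT library 4 as the only WT library. It was from 1 to 13 with 1 library left out, with 13 without WT library 4. Subunit genes with an unadjusted p under 0.05 numbered 2 with DESeq2, upper-quartile scaling, no filter or the length trend removed (3.39%, 3.42%, 3.16% and 3.98% of all genes were higher with such a p), 0 with Xist as a covariate (0.905%), and 0 to 5 with 1 library left out (1.73% to 4.85%). The number without overlap and higher in ErbB4-/- was 0 to 4 with 1 library left out (2.44% to 5.46% of all genes in that direction), and 0 with a prior count of 0.5 (1.86%) or without TMM factors (1.83%). The cause of these moves was not tested.

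With the replicate number as a block, 1 gene was called and 2 subunit genes had an unadjusted p under 0.05 (3.97% of all genes were higher with such a p). The labels do not say that a number marks a shared litter or day, and correlations of same-numbered libraries were low (0.0236 to 0.135), so the numbers were not taken as pairs. Of the 8 libraries, 5 correlated best with their own number, where a mutual best match counts for both of its libraries. The highest correlation lay between different numbers (WT library 3 and ErbB4-/- library 4, 0.154). Whether libraries were paired was not tested.

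Relative to the other subunits, Gabra5 changed sign without WT library 1 (0.0535, range -0.107 to 0.0535 with 1 library left out) and Gabrb2 without WT library 3 (0.0136) or ErbB4-/- library 1 (0.0171, range -0.0687 to 0.0171). With neuron markers as the reference, the difference was positive at Gabra2 (0.13), Gabra3 (0.0574), Gabra4 (0.0876), Gabra5 (0.17) and Gabrb2 (0.20). Relative to the other subunits it was negative at these genes. Differences relative to the other subunits balance out by construction, so some are negative whatever the common direction. A change of sign with the new reference thus does not measure stability. An exact permutation p of 0.0286, the smallest that 3 against 4 libraries allow, was reached by Gabrb1 without WT library 2 (difference 0.64), by Gabra4 relative to the other subunits without WT library 2 (-0.29) and by Gabra3 relative to them without ErbB4-/- library 4 (-0.25). Over all alternatives, 312 results were labelled as kept. For fold changes and differences this meant the same sign and side of the threshold. For counts it meant staying within a set ratio, and for the median a move smaller than the spread. No subunit gene passed the adjusted threshold in any fit, so a kept fold change means only a kept sign. Gabra4 was so labelled at 0.01 with WT library 4 as the only WT library, against 0.13 with all 8 libraries. A further 28 moved, 8 changed sign (including those with the new reference above) and 3 newly passed the threshold. Gabrg3 and Gabrb1 had the fewest reads and the widest errors of their fold changes.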
